A study of Arabidopsis thaliana with 12 samples.

Results

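Seeds of the Arabidopsis thaliana mutant odr1-2 were compared after 12 h in 300 mM mannitol, used by the study as an osmotic stress, and after 12 h in water. The comparison was defined by the sample labels and was chosen with earlier results of these data known. It set 3 libraries of odr1-2 seeds in mannitol against 3 libraries of odr1-2 seeds in water, over all genes with enough counts to be tested. These are 6 of the 12 libraries of the series. The other 6 libraries are Col-0, the wild type, in mannitol (3 libraries) and in water (3 libraries). They entered here to set the spread between replicates and to test whether the response of odr1-2 differed from that of the wild type. All seeds were after-ripened and had spent 2 days at 4°C before the 12 h in either medium, so cold stratification is shared by every group. The study design gives 3 biological replicates per group. How many seeds a library pooled, whether the seeds of a group came from several mother plants, and what the odr1-2 allele does to the transcript are not given in the sources used here. The transcript of ODR1 was not analysed here.

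Mannitol holds water outside the seed and so slows the uptake that drives germination. A seed that takes up water normally gives up its maturation programme, in which abscisic acid (ABA) keeps storage and late embryogenesis abundant (LEA) proteins expressed, and turns to a growth programme in which gibberellin supports cell wall loosening and elongation of the embryo. ABA is sensed by PYR/PYL receptors, which block clade A PP2C phosphatases and thereby free SnRK2 kinases to act on bZIP factors such as ABI5. ODR1 is known as a negative regulator of seed dormancy in Arabidopsis.

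In odr1-2 seeds, mannitol left the transcripts of the maturation programme higher and those of the growth programme lower than water did. Of 36795 loci in the table, 18413 were tested. Of these 7826, or 42.5%, changed in the edgeR quasi-likelihood test at an adjusted p under 0.05, where 3907 (21.2%) rose and 3919 (21.3%) fell. Most changes were small: the median absolute log2 fold change of the called genes was 0.47, and 1217 genes (6.61%) changed at least 2-fold, 565 up (3.07%) and 652 down (3.54%). Under scaling by total counts the risers made up 38.2% of the calls, and in a fit of TPM 32.9%, against 49.9% here. These scalings moved the median log2 fold change of all genes from 0 to -0.07 and to -0.10. At an unadjusted p under 0.05 the share was 49.3%, and for 9278 genes (50.4%) the 3 mannitol libraries did not overlap the 3 water libraries. The first principal component of the 6 libraries held 62% of their variance and separated the media.

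**Figure D1:**
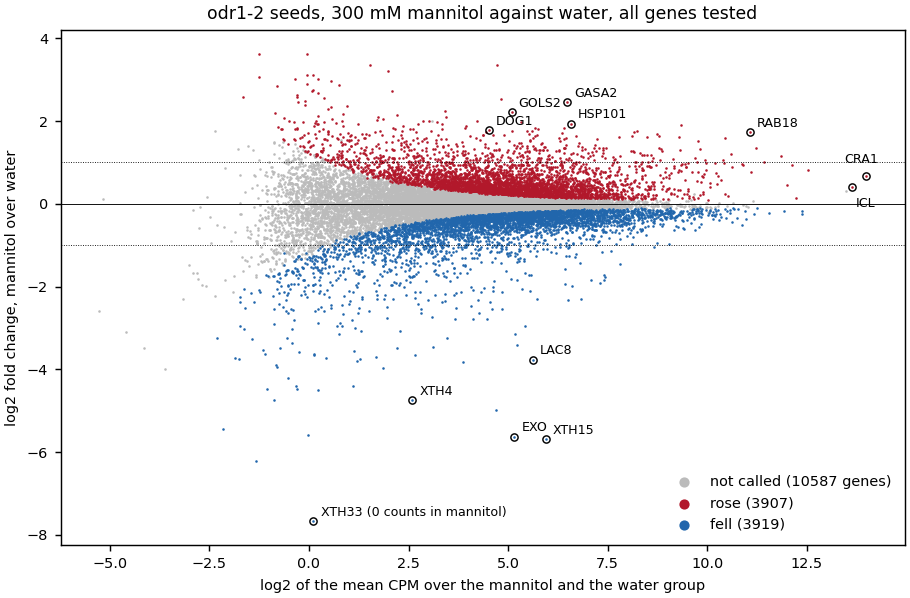
Log2 fold change of each of the 18413 genes tested (y axis, mannitol over water in odr1-2 seeds) against the log2 of its mean CPM (x axis), with risers in red, fallers in blue and genes not called in grey. The falls reach further than the rises, down to EXO and XTH15 at about -5.6 and -5.7, while the the labelled riser GASA2 lies at 2.45. XTH33 had 0 counts in mannitol, so its plotted fold is a fitted value and no bound.

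The 12 libraries held 10060020 to 13693166 counts, and the genes tested held 99.91% to 99.92% of each. Levels are given as CPM, the count scaled to a fixed size of the TMM-adjusted library, in the order of replicates 1, 2 and 3. Some properties of the libraries moved with the medium. The 10 most abundant genes took 8.18% to 8.30% of counts in odr1-2 mannitol, against 6.48% to 6.61% in odr1-2 water. Chloroplast-encoded loci took 0.0155% to 0.0168% in mannitol and 0.00661% to 0.00749% in water. Genes that rose at least 2-fold had a median exon length of 1350 bases, against 1770 for those that fell at least 2-fold and 1760 for all genes tested. In whole seeds, fewer cells of a type and less RNA per cell cannot be told apart.

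The endosperm markers summed to 13900 to 15100 CPM in mannitol and 11500 to 12700 CPM in water over the 4 tested of 5, and 2 of the 4 fell: EXPA2 (log2 fold change -0.36 ± 0.04, SE) and ICE1 (-0.19 ± 0.05). The endosperm gene EPR1 (AT2G27380, extensin proline-rich 1) had the largest part of that sum and did not pass the test (adjusted p = 0.26). RGE1, an endosperm regulator of the developing seed, was at 0 counts in all 6 libraries. Seed coat markers summed to 14.4 to 15.8 CPM in mannitol and 15.8 to 18.8 CPM in water over 5 genes. TT10 had no count in these 6 libraries and BAN none in 5 of them. The 4 green leaf markers summed to 349 to 371 CPM in mannitol and 364 to 376 CPM in water, nearly all of it RBCS1A, and LHCB2.1 was at 0 counts. The part of these markers in the results was not tested. Of the genes named by rule, P5CS1, P5CS2, MYBR1, ABF4, HSFA9, FKF1, F3H, BETA-TIP, SNRK2.3, ERS1, GL2, MUM4, CAB1, AGP4, GASA6, LAC8, AT4G07408, XTH15 and AT4G14120 overlap a gene on the opposite strand. Only opposite genes that were tested and not far less abundant were looked for. Genes named after their values were seen were not checked for this. Since no strand setting is given for the counting, reads of such a pair cannot be told apart.

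LEA proteins are small hydrophilic proteins that accumulate in the drying seed and protect its cells. Of 27 LEA genes tested 24 rose, 1 fell and 2 were not called, with a median log2 fold change of 0.99 against 0 over all genes tested, and 13 rose at least 2-fold. Together they held 3.55% of the authors' TPM, a length-scaled abundance, in mannitol and 1.88% in water. RAB18 (AT5G66400), the ABA-responsive dehydrin, had 3270, 3430 and 3200 CPM in mannitol, against 904, 994 and 1090 CPM in water. Each mannitol library thus lay far above each water library, and the fitted log2 fold change was 1.73 ± 0.10 (SE, adjusted p = 5.9e-07).

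EM6 (AT2G40170), an LEA protein of the late embryo, had 1330, 1290 and 1280 CPM in mannitol and 413, 468 and 479 CPM in water, a log2 fold change of 1.52 ± 0.06 (adjusted p = 3.46e-16). Its relative EM1 rose by 1.63 ± 0.09 on the same scale. ECP31 (AT3G22500), a seed maturation protein, had the largest rise of the list, with 1020, 1020 and 1000 CPM in mannitol and 264, 264 and 282 CPM in water. That is a 3.76-fold higher level (log2 fold change 1.91 ± 0.04, adjusted p = 3.16e-46). The exception was COR47, a cold-responsive dehydrin chosen here after its value was seen, which fell (log2 fold change -0.29).

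All 20 genes tested for storage proteins and oil bodies rose, with a median log2 fold change of 0.94 and a range from 0.49 (SESA1) to 1.6 (SESA5). This is 20 of 20 against 21.2% of all genes. The cruciferin CRA1 (AT5G44120) was the most abundant of them by TPM and had 20400, 20100 and 19900 CPM in mannitol and 12600, 12500 and 12600 CPM in water. Its rise was 1.6-fold (log2 fold change 0.68 ± 0.03, adjusted p = 7.14e-30), below the list's median.

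SESA5 (AT5G54740), a 2S albumin, had 2190, 2070 and 2080 CPM in mannitol against 677, 709 and 705 CPM in water (log2 fold change 1.6 ± 0.04, adjusted p = 2.04e-44). The oleosins, which coat the oil bodies, rose as well: OLEO4 by 1.36 ± 0.05 and OLEO1 by 0.95 ± 0.03. The seed tonoplast aquaporin BETA-TIP had 928, 949 and 944 CPM in mannitol and 304, 311 and 307 CPM in water, a 3.06-fold higher level (adjusted p = 9.3e-43). Of 16 aquaporins tested 4 rose and 4 fell, against 21.2% and 21.3% of all genes tested. Under total counts and in the TPM fit 3 of these aquaporins rose and 6 fell. The plasma membrane member PIP2;8 fell (log2 fold change -1.15 ± 0.20).

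By the authors' TPM, which allows levels of different genes to be set side by side, 6 of the 10 most abundant transcripts in odr1-2 mannitol belong to the storage and LEA lists. LCR67 (AT1G75830), a cysteine-rich peptide, led with 16300 ± 688 TPM in mannitol and 12800 ± 383 TPM in water (SD, n = 3 each). CRA1 followed with 16000 ± 241 TPM in mannitol and 10700 ± 153 TPM in water. Isocitrate lyase (ICL), an enzyme of the glyoxylate cycle that turns oil carbon into sugar, had 9730 ± 65.5 TPM in mannitol against 7920 ± 65.5 TPM in water. OLEO1, CRU3, SESA3, the LEA gene AT3G15670, RAB18 and the AWPM-19-like gene AT1G04560 had 4290 to 9690 TPM in mannitol and 1460 to 5390 TPM in water. All 9 of these rose by the count test, while EPR1, the other member of the 10, had 7970 ± 445 TPM in mannitol and 6900 ± 472 TPM in water and was not called.

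The bases before these genes are shown because the maturation groups moved together and share short binding motifs. The 250 bases before the annotated start of each protein-coding gene were read from the RefSeq genome TAIR10.1 and searched on both strands. The ABRE core (ACGTG), bound by ABI5 and ABF factors, was found in 44.0% of 470 promoters of genes that rose at least 2-fold, in 24.8% of 602 of those that fell at least 2-fold, and in 23.3% of 16990 of all genes tested. It was in 85.2% of LEA promoters and 65.0% of storage and oil body promoters. The G-box (CACGTG), which holds the ABRE core on both strands, was in 20.0% of the risers, 5.81% of the fallers and 7.82% of all tested. Over all 27443 promoters of the genome the shares were 22.9% for the ABRE core and 6.49% for the G-box.

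The promoters of 3 LEA genes are printed 5′ to 3′ on the strand of the gene, ending at the base before the start, with each ABRE core match on either strand in capitals. AT3G53040 is shown for its 7 matches, where a G-box counts on both strands, and was chosen after its matches were seen. Its LEA gene rose by 1.1 on the log2 scale. Both AT3G53040 and EM6 hold a whole G-box, and RAB18 holds only single cores. EM6 is on chr2:16780369-16780618, minus strand, RAB18 on chr5:26519448-26519697, minus strand, and AT3G53040 on chr3:19666498-19666747, minus strand.
EM6: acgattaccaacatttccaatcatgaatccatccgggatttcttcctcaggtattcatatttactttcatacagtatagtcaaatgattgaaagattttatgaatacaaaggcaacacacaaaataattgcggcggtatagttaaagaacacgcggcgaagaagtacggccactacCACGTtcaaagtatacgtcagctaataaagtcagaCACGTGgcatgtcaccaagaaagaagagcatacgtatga
RAB18: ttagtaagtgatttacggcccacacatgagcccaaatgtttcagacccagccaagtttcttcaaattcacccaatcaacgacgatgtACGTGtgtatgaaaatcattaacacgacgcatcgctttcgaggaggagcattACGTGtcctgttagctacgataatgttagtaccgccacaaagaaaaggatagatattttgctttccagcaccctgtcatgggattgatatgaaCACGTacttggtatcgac
AT3G53040: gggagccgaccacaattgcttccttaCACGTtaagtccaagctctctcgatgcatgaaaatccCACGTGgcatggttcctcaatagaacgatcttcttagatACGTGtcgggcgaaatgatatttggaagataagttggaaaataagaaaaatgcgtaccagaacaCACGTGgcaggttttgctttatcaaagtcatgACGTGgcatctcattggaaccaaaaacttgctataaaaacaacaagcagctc

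The RY motif (CATGCA), bound by the B3 factors ABI3, FUS3 and LEC2, was in 90.0% of storage and oil body promoters, in 22.2% of LEA promoters and in 7.25% of all genes tested. It was in 17.7% of the genes that rose at least 2-fold and in 14% of those that fell at least 2-fold, so by this motif both directions lay above all genes. SESA5 (chr5:22239188-22239437, minus strand) and SESA3 (chr4:13611546-13611795, plus strand) are shown with RY matches in capitals, 4 and 7 counted on both strands with overlaps. SESA3 rose by 0.77 ± 0.04 on the log2 scale and SESA5 by 1.6 ± 0.04, so the promoter with more matches is not that of the larger rise.
SESA5: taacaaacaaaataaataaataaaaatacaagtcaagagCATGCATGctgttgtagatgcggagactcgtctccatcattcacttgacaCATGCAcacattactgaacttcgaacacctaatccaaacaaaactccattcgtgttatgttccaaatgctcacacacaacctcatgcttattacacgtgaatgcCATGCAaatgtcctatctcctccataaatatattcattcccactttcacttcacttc
SESA3: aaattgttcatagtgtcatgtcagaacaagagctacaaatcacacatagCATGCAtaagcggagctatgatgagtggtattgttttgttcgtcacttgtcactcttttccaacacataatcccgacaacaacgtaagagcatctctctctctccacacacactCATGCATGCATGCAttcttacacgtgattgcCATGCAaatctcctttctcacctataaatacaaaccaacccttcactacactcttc

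**Figure D2:**
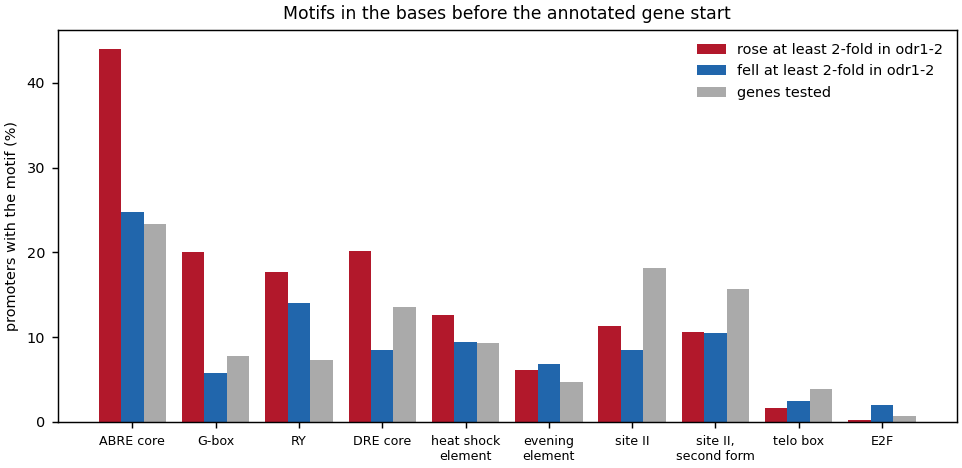
Share of promoters (y axis, percent) that hold each motif at least once on either strand in the 250 bases before the gene start, for genes that rose at least 2-fold (red), fell at least 2-fold (blue) and all genes tested (grey). The red bar for the ABRE core stands at 44.0%, against 23.3% for all genes tested.

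The DRE core (CCGAC), bound by DREB factors, was in 20.2% of the risers, 8.47% of the fallers and 13.5% of all tested. The heat shock element in the form GAANNTTC was in 12.6%, 9.47% and 9.35% of these sets, in the same order, and the evening element (AAATATCT) in 6.17%, 6.81% and 4.68%. These are shares of sequence matches and say nothing of binding in these seeds.

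Of 8 genes of ABA synthesis tested 5 rose and 1 fell, with a median log2 fold change of 0.43, and in the TPM fit 2 rose and 1 fell. ABA1, the zeaxanthin epoxidase that supplies carotenoid precursors, had 193, 203 and 200 CPM in mannitol and 105, 111 and 111 CPM in water. It rose 1.82-fold (adjusted p = 8.84e-22). NCED9 (AT1G78390), whose enzyme makes the ABA precursor xanthoxin, had 37.1, 35.6 and 36.5 CPM in mannitol and 21.7, 19.1 and 18.6 CPM in water, and rose 1.85-fold (log2 fold change 0.88 ± 0.10, adjusted p = 2.31e-11). NCED6, the other gene tied to ODR1 in the literature, moved the opposite way: 5.61, 8.89 and 7.09 CPM in mannitol and 10.5, 12.2 and 13.9 CPM in water (log2 fold change -0.77 ± 0.17, adjusted p = 0.000186).

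Of 6 genes tested for ABA breakdown and transport 1 rose and 2 fell, against 21.2% and 21.3% of all genes tested. Of the ABA 8′-hydroxylases, which break ABA down, CYP707A2 had 132, 136 and 125 CPM in mannitol and 132, 117 and 120 CPM in water, and did not pass the test (log2 fold change 0.09 ± 0.06, adjusted p = 0.241). CYP707A3 was at 0.92, 1.74 and 1.26 CPM in mannitol and 5.16, 3.72 and 5.88 CPM in water and fell 3.75-fold (adjusted p = 1.73e-07). The ABA transporters moved apart, ABCG31 up (1.05 ± 0.31) and ABCG25 down (-0.57 ± 0.09). Without water replicate 3 ABCG31 was no longer called.

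Most of the listed receptors and phosphatases of the ABA pathway moved in opposite directions. Of 9 PYR/PYL receptors tested 6 fell and 2 rose, with a median log2 fold change of -0.89. The receptor list was made by gene symbol and lacks PYL8 and PYL9. PYL4 (AT2G38310) had 14.1, 15.4 and 14.9 CPM in mannitol and 54.6, 49.4 and 53.0 CPM in water, 3.53-fold lower (adjusted p = 2.75e-28). PYL6 fell by 1.76 on the log2 scale, and PYL13, at 14.4, 11.6 and 13.5 CPM in mannitol against 5.94, 6.74 and 6.25 CPM in water, rose 2.08-fold (adjusted p = 1.89e-07).

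Of the 9 clade A PP2C phosphatases, which keep the pathway off when no ABA is bound, 6 rose and 1 fell, and in the TPM fit 4 rose and 2 fell. AHG1, the member known for its part in seeds, had 593, 627 and 647 CPM in mannitol and 331, 387 and 374 CPM in water (log2 fold change 0.77 ± 0.05, adjusted p = 6.85e-23). HAI3 rose by the same 0.77 and HAI2 by 0.70. The SnRK2 kinases in the list, which lacks OST1, changed little. SNRK2.10 rose by 0.54 and SNRK2.3 by 0.20, which is 2 of 8 up (21.2% of all genes tested), and none fell (21.3%). Under scaling by total counts 1 rose and 1 fell, and SNRK2.3 was not called.

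DOG1 (AT5G45830), the dormancy protein that binds AHG1, had 32.6, 35.9 and 37.4 CPM in mannitol and 11.4, 9.69 and 9.88 CPM in water. The media did not overlap, as for 50.4% of all genes tested, and DOG1 was 3.44-fold higher in mannitol (log2 fold change 1.78 ± 0.13, adjusted p = 1e-19). AT4G18660, annotated as a delay of germination protein, rose 4.01-fold. Of the 14 dormancy and embryo programme genes tested 8 rose and 1 fell. The faller was ABI4 (log2 fold change -0.51). ABI5 (0.38) and ABI3 (0.19) rose by small steps, and FUS3 (0.14) was not called. These 4 were named after their values were seen. HSFA9, a heat shock factor of the maturing seed, rose 3.94-fold, with 15.1, 14.6 and 14.8 CPM in mannitol and 4.29, 3.87 and 3.2 CPM in water. The bZIP factor EEL rose 2.26-fold.

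The ABRE-binding factor ABF4 had 54.7, 57.1 and 57.7 CPM in mannitol and 24.1, 25.0 and 26.1 CPM in water, a log2 fold change of 1.17 ± 0.09 (adjusted p = 4.06e-19). Of 22 osmotic stress transcription factors tested 8 rose and 4 fell, against 21.2% and 21.3% of all genes tested, and 10 were not called. MYBR1 (AT5G67300), a MYB factor of ABA responses, was among the 4 that fell, with 15.5, 17.3 and 14.9 CPM in mannitol and 68.2, 63.0 and 67.3 CPM in water (4.15-fold lower, adjusted p = 3.53e-32). RD29B (AT5G52300), a common marker of ABA and drought responses, had 386, 411 and 410 CPM in mannitol and 247, 267 and 265 CPM in water, a modest 1.55-fold rise (adjusted p = 2.25e-18).

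**Figure D3:**
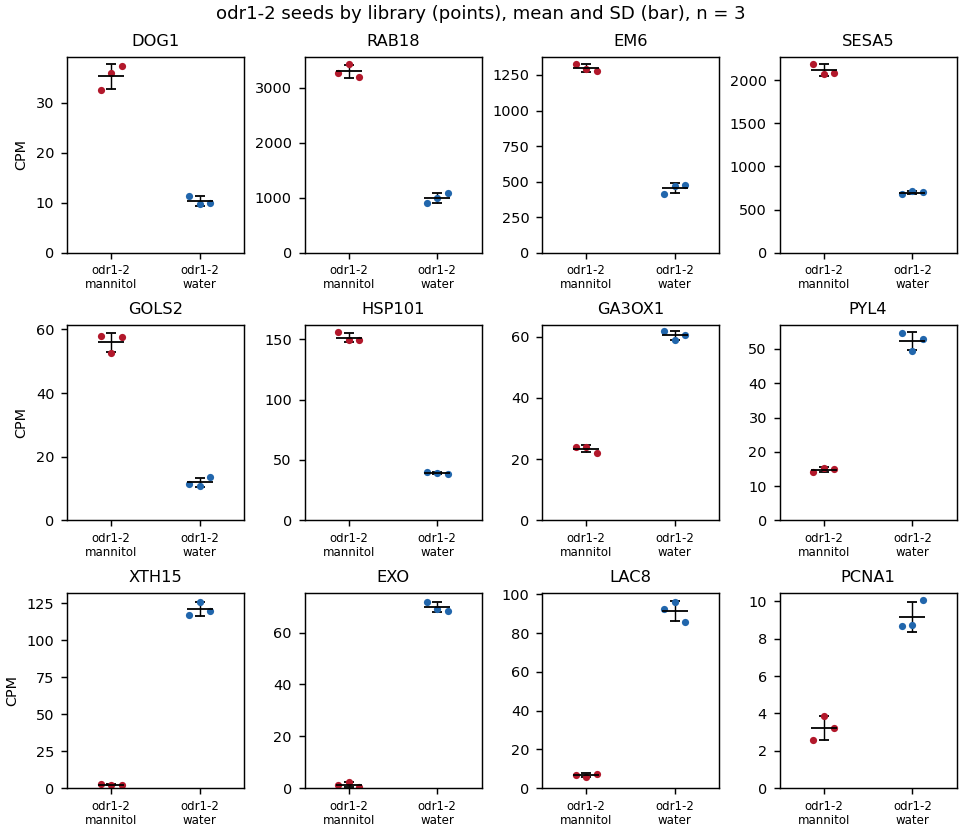
CPM (y axis, linear, from 0) of 12 genes in the 3 odr1-2 mannitol libraries (red points, left) and the 3 odr1-2 water libraries (blue points, right), with the mean and SD as black bars. In each panel the media do not overlap, and DOG1, for example, lies at 32.6 to 37.4 CPM in mannitol and 9.69 to 11.4 CPM in water. All 12 were called genes, and some were named by a rule that required no overlap. The media do not overlap in 50.4% of all genes tested.

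GOLS2 (AT1G56600), galactinol synthase, which starts the raffinose pathway, had 57.8, 52.5 and 57.7 CPM in mannitol and 11.3, 10.9 and 13.7 CPM in water, 4.66-fold higher (adjusted p = 6.02e-29). Stachyose synthase (STS) rose 2.35-fold, while DIN10, annotated in the raffinose synthase family, fell to 36.5, 43.7 and 37.0 CPM in mannitol, against 185, 186 and 200 CPM in water (4.87-fold lower). Of the 5 raffinose pathway genes tested 3 rose and 2 fell.

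Of 8 genes of proline metabolism tested 2 rose and 1 fell, while 1 rose and 3 fell under total counts and in the TPM fit. The shares of all genes tested were 21.2% up and 21.3% down. P5CS1, the stress-induced enzyme of proline synthesis, had 14.2, 16.9 and 14.4 CPM in mannitol and 12.1, 15.1 and 16.1 CPM in water. The media overlapped and it was not called (log2 fold change 0.06 ± 0.15, adjusted p = 0.793). Its paralog P5CS2, which serves growth, rose 1.36-fold. The proline transporter PROT1 fell 2.42-fold, with 59.6, 59.3 and 62.3 CPM in mannitol and 145, 148 and 146 CPM in water (adjusted p = 3.83e-28). Of the trehalose list 5 of 11 rose and 3 fell, led by TPS11 (1.98-fold higher) and TPPA (2.25-fold lower).

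Among seed antioxidants 6 of 19 rose and 3 fell, against 21.2% and 21.3% of all genes tested. In the TPM fit 5 rose and 5 fell. The fallers, named after their values were seen, were FSD1 (log2 fold change -0.51), G-TMT (-0.41) and APX1 (-0.36). PER1, the 1-cysteine peroxiredoxin of dormant seeds, had 1350, 1340 and 1300 CPM in mannitol and 705, 647 and 671 CPM in water (1.97-fold higher, adjusted p = 3.22e-31). CAT3, a catalase, rose 1.89-fold and VTE1, the tocopherol cyclase of vitamin E synthesis, 2.35-fold.

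In a list of carbon starvation and branched-chain amino acid breakdown 8 of 15 genes rose and 2 fell, and in the TPM fit 6 rose and 2 fell. The risers, named after their values were seen except SEN1 and ASN1, were mostly genes of branched-chain amino acid breakdown: BCAT-2, MCCA, IVD, AT1G21400, ETFQO and ETFBETA. The fallers were the starvation genes EXL1 (log2 fold change -3.55) and BGLU30 (-0.74). SEN1 rose 4.76-fold and ASN1, the asparagine synthetase induced in the dark, 3.57-fold, with 131, 136 and 134 CPM in mannitol and 35.7, 37.8 and 38.3 CPM in water (adjusted p = 5.3e-35). Reserve breakdown itself moved little: of 21 genes of oil breakdown and gluconeogenesis 5 rose and 7 fell (4 and 9 under total counts, 2 and 10 in the TPM fit). The shares of all genes tested were 21.2% up and 21.3% down. Log2 fold changes of the 21 genes lay between -0.40 (CSY2) and 0.40 (ICL). ICL had 14500, 14500 and 14600 CPM in mannitol against 10800, 11100 and 11200 CPM in water. Of 10 genes of fatty acid and oil synthesis 6 fell and 2 rose, and ROD1, which channels fatty acids for desaturation, fell 4.30-fold.

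Heat shock proteins moved in both directions. Of 21 tested 9 rose and 10 fell, so that the median, -0.08, describes neither side. HSP101 (AT1G74310), the chaperone that dissolves aggregates, had 156, 149 and 149 CPM in mannitol and 40.3, 39.5 and 38.6 CPM in water, 3.84-fold higher (adjusted p = 5.61e-34). HSP70T-2 rose 3.91-fold, and the small heat shock protein HSP17.6A rose 3.58-fold, with 76.5, 85.8 and 79.4 CPM in mannitol and 25.1, 22.0 and 20.8 CPM in water.

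The members that fell, named after their values were seen, were the chaperonins HSP60 (-0.49), HSP60-2 (-0.71) and HSP60-3A (-0.53), HSP93-III (-0.53), Hsp89.1 (-0.40), Hsp70-2 (-0.73), HSP91 (-0.29) and the cytosolic HSP90 genes HSP81-2 (-0.45), HSP81-3 (-0.40) and Hsp81.4 (-0.41), all as log2 fold changes. By contrast HSP90.1, the heat-inducible HSP90, rose by 1.37, also named after its value was seen. Of 9 heat shock factors 4 rose and 1 fell, HSFA2 by 1.0 and HSFB4 by -0.91.

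The steepest falls were in genes of the growing cell wall. Of 14 xyloglucan endotransglucosylases tested, which cut and rejoin the xyloglucan that ties cellulose fibres, 10 fell, 2 rose and 2 were not called. The median was -2.23, also with XTH33 put at its bound, and -1.07 in the fit of log2(TPM + 1). XTH15 (AT4G14130) had 2.48, 2.11 and 2.42 CPM in mannitol and 117, 126 and 120 CPM in water, a 51.6-fold lower level (log2 fold change -5.69 ± 0.12, adjusted p = 6.5e-48). AT4G14120, which lies over XTH15 on the opposite strand, fell by 4.99 on the log2 scale.

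XTH9 had 8.09, 5.96 and 5.30 CPM in mannitol and 69.2, 68.2 and 68.5 CPM in water (10.6-fold lower), XTH16 was 8.81-fold lower and XTH4 26.8-fold lower. XTH33 had 0 counts in all 3 mannitol libraries and 1.85, 1.94 and 2.69 CPM in water, which is at least 24.1-fold lower at a floor of 3 counts over the group. The risers, named after their values were seen, were XTH25 (1.59 on the log2 scale) and XTH11 (0.19).

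EXO (AT4G08950), which founds the EXORDIUM family of growth-promoting wall proteins, had 1.38, 2.2 and 0.629 CPM in mannitol and 71.9, 69.1 and 68.3 CPM in water, 49.5-fold lower (adjusted p = 4.26e-43). Of the 6 EXORDIUM genes tested 5 fell at least 2-fold and 1, EXL2, rose. Fasciclin-like and arabinogalactan proteins fell in 17 of 24 cases, with none up and a median of -0.93. AGP12 was 4.81-fold and AGP4 4.41-fold lower. Expansins, which loosen walls at acid pH, fell in 8 of 11 cases with none up, but by less. EXPA9 was 2.31-fold lower and EXPA10 1.44-fold, with EXPA10 at 490, 496 and 488 CPM in mannitol and 706, 709 and 712 CPM in water.

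The 15 largest falls held 4 XTH genes, EXO and AT4G14120, and the others follow. LAC8, a laccase, had 6.90, 5.68 and 7.54 CPM in mannitol and 92.3, 95.9 and 85.7 CPM in water (13.6-fold lower, adjusted p = 2.3e-42). LRX3, a leucine-rich repeat extensin of the wall, was 6.92-fold lower, and AT3G24480, annotated as a leucine-rich repeat protein, was 9.49-fold lower. MIOX2, whose enzyme makes glucuronic acid for wall polymers, was 7.73-fold lower. LGT8, a family 8 glycosyltransferase (11.0-fold), the proline-rich AT4G16140 (12.7-fold), the GDSL lipase AT5G45670 (14.2-fold), the formin-like AT1G10020 (6.89-fold) and the cytochrome CYP81F2 (6.83-fold) complete the falls. PME3, a pectin methylesterase, was 4.95-fold lower. Of 6 cellulose synthase genes 2 fell and 1 rose, against 21.3% and 21.2% of all genes tested, and 3 were not called.

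**Figure D4:**
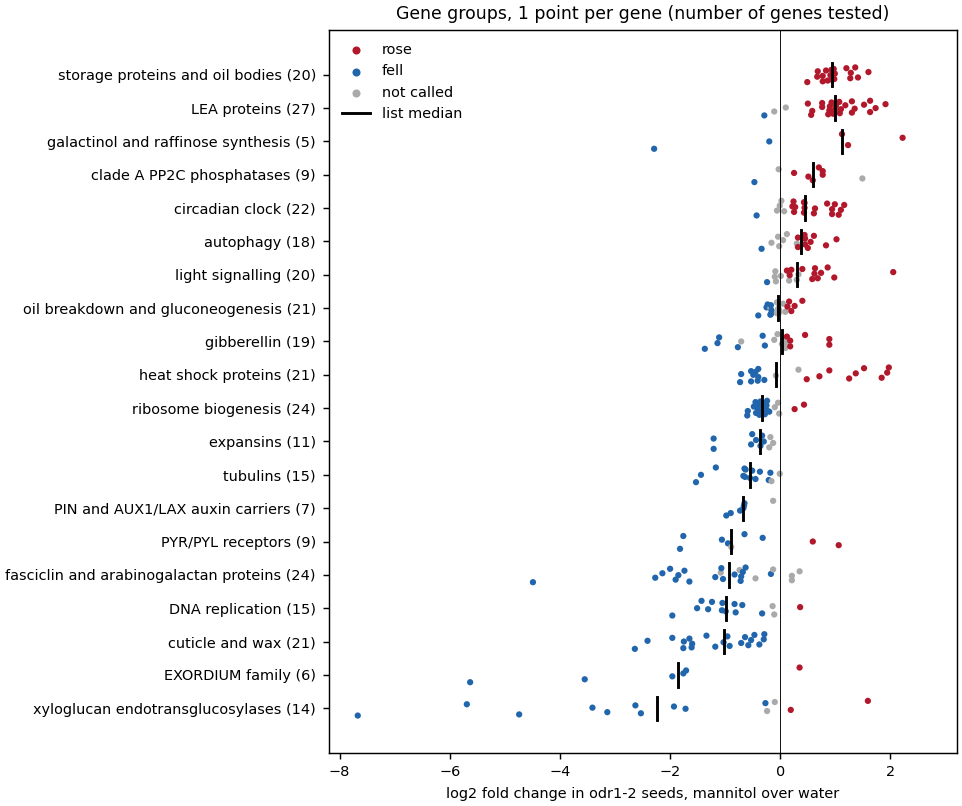
Log2 fold change (x axis, mannitol over water in odr1-2) of the tested members of 20 gene groups, each point 1 gene, red where it rose, blue where it fell and grey where it was not called, with the group's median as a black line. All storage and oil body genes and all LEA genes but COR47 (-0.29) and ERD10 (-0.11, not called) lie right of 0, cuticle, XTH and EXORDIUM genes reach far to the left, and heat shock proteins lie on both sides. The leftmost point, XTH33, had 0 counts in mannitol and is a fitted value.

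All 21 genes tested for cuticle and wax fell, 11 of them at least 2-fold, with a median log2 fold change of -1.03. This is against 21.3% of all genes that fell. KCS20, an enzyme of very long chain fatty acid synthesis, had 1.84, 2.11 and 1.89 CPM in mannitol and 9.74, 13.2 and 13.3 CPM in water (6.22-fold lower, adjusted p = 6.65e-18). GPAT4, an acyltransferase of cutin synthesis, was 5.33-fold lower and KCS1 3.89-fold lower. The smallest fall was that of the wax exporter ABCG12 (-0.29). The cuticle is made by the epidermis, and the epidermal markers fell too: PDF1, PDF2 and ATML1 summed to 324 to 334 CPM in mannitol and 486 to 492 CPM in water. PDF1 had 58.8, 58.2 and 56.7 CPM in mannitol against 116, 115 and 119 CPM in water (2.01-fold lower, adjusted p = 1.1e-22), while PDF2 and ATML1 were each 1.37-fold lower. Their part in the cuticle result was not tested.

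Most listed genes of DNA replication, ribosome biogenesis and tubulin fell. The DNA replication list had 12 fallers and 1 riser among 15 genes, and its median was -0.99. PCNA1, the sliding clamp of the replication fork, had 2.57, 3.85 and 3.23 CPM in mannitol and 8.67, 8.76 and 10.1 CPM in water (2.85-fold lower, adjusted p = 7.02e-10). The helicase subunit MCM6 was 2.7-fold lower. Ribosome biogenesis moved by smaller steps, with 19 of 24 genes lower, 2 higher and a median log2 fold change of -0.34. NOP56, a core protein of the particles that modify ribosomal RNA, had 560, 531 and 551 CPM in mannitol and 788, 877 and 821 CPM in water (1.52-fold lower, adjusted p = 7.64e-21), and fibrillarin FIB2 was 1.51-fold lower. Of 15 tubulin genes 13 fell and none rose. Cyclins A, B and D did not share this, with 3 of 16 down, near the 21.3% of all genes tested, and 1 up.

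Promoters of the replication and ribosome groups were searched for motifs known from growth genes. The E2F motif (TTTCCCGC) was in 26.7% of 15 replication promoters, a count of 4, and in 0.659% of all genes tested. It was in 0 of 24 ribosome biogenesis promoters. The site II element (TGGGCC) was in 53.3% of replication promoters, 50% of ribosome biogenesis promoters and 18.2% of all tested, yet in only 8.47% of the genes that fell at least 2-fold. Its second form (TGGGCT) was in 33.3%, 20.8% and 15.7% of the first 3 of these sets. The first form was also in 47.6% of 21 heat shock protein promoters, so it was not particular to the replication and ribosome groups. The telo box (AAACCCTA) was in 16.7% of ribosome biogenesis promoters and 3.91% of all tested. MCM2 (chr1:16969964-16970213, plus strand, log2 fold change -1.05) is shown with E2F and site II (first form) matches in capitals, and NOP56 (chr1:20986953-20987202, minus strand) with site II and telo box matches. Both were chosen after their matches were seen.
MCM2: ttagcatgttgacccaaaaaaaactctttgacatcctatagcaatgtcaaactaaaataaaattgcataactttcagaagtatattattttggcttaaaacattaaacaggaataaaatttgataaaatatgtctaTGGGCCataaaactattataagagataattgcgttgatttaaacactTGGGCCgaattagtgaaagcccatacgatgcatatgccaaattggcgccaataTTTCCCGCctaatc
NOP56: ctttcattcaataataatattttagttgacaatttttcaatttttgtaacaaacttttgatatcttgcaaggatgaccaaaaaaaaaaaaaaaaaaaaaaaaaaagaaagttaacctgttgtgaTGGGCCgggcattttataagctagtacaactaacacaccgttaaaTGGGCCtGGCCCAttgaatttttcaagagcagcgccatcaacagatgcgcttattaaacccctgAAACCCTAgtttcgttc

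GA3OX1 (AT1G15550), the last step to active gibberellin, had 24.0, 24.0 and 22.1 CPM in mannitol and 61.7, 58.8 and 60.6 CPM in water, 2.58-fold lower (adjusted p = 1.72e-20). GA3OX2 was 2.2-fold and GA20OX2 2.16-fold lower. Of the 19 gibberellin genes tested 6 fell and 6 rose, against 21.3% and 21.2% of all genes tested. Under scaling by total counts 8 fell and 3 rose. Among the risers, named after their values were seen, were the receptors GID1A and GID1C, both by 0.89 on the log2 scale. GASA2, a gibberellin-regulated peptide gene, had 153, 147 and 149 CPM in mannitol and 28.3, 24.7 and 29.4 CPM in water (5.45-fold higher, adjusted p = 9.1e-40), GASA3 was 2.37-fold higher and GASA6 1.69-fold lower.

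Of 16 brassinosteroid genes 5 fell and 3 rose, while 7 fell and 1 rose under total counts and in the TPM fit. DWF4, a rate-limiting enzyme of brassinosteroid synthesis, was 2.12-fold lower, and the receptor BRI1 1.52-fold lower, at 124, 137 and 136 CPM in mannitol and 211, 192 and 201 CPM in water. Auxin carriers of the PIN and AUX1/LAX families fell in 6 of 7 cases, with none up and a median of -0.67, among them PIN3 (1.86-fold lower) and PIN7 (1.66-fold lower). LAX1 fell too, though not without mannitol replicate 2. Of 15 Aux/IAA repressors 4 fell and 2 rose (7 and 1 in the TPM fit), and the ethylene list had 4 down and 3 up of 16 (6 and 1 in the TPM fit). The shares of all genes tested were 21.3% down and 21.2% up. Of the ethylene genes ACS2, an enzyme of ethylene synthesis, had 31.3, 31.1 and 32.9 CPM in mannitol and 9.74, 8.99 and 11.1 CPM in water (3.18-fold higher, adjusted p = 1.53e-17), and the receptor ETR2 was 2.56-fold lower.

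Clock and light genes leaned upwards. Among 22 clock genes, 17 were risers and 1 a faller, and the median log2 fold change was 0.44. PRR9, a day-phase repressor, had 75.4, 77.0 and 67.2 CPM in mannitol and 36.0, 33.1 and 33.4 CPM in water (2.14-fold higher, adjusted p = 5.77e-19). FKF1, which overlaps MAP70-1 on the opposite strand, and PRR5 were 2.08-fold and 2.23-fold higher. Of 20 light signalling genes 12 rose and 1 fell. PHYD, a phytochrome, had 136, 135 and 137 CPM in mannitol and 67.2, 73.2 and 67 CPM in water (1.97-fold higher, adjusted p = 4.43e-22). The ABRE core was in 68.2% and the evening element in 27.3% of the clock promoters, against 23.3% and 4.68% of all tested. Time of day is not given per library in the sources used here.

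Among 18 genes tested with an ATG symbol, taken as autophagy genes, 10 rose and 1 fell, led by ATG8H (2.03-fold higher) and ATG8F (1.78-fold higher). The faller, AT3G51800 (log2 fold change -0.34), shares the symbol ATG2 with AT3G19190, which was not called. AT3G51800 entered the list by its symbol alone, so it may not be an autophagy gene. Of 37 calcium sensors and kinases 12 rose and 7 fell, but the balance turned under total counts (7 up, 9 down) and in the TPM fit (6 up, 8 down). Nitrate reductase NIA2 was 1.79-fold lower, with 89.5, 99.2 and 95.5 CPM in mannitol and 183, 162 and 166 CPM in water, in a list of 9 with 3 up and 3 down (2 and 4 in the TPM fit). The sucrose carrier SUC1 was 4.46-fold lower, and 5 of 10 sugar transporters fell against 1 that rose. Of 12 phenylpropanoid and flavonoid genes 5 rose and 2 fell, and F3H and TT7 were 2.11-fold and 2.02-fold higher. Potassium transport had 3 up and 2 down of 13, near the shares of all genes tested (21.2% up, 21.3% down), and pectin methylesterases 1 up and 2 down of 4. The only small auxin-up RNA gene tested was not called.

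The 15 largest rises included AT1G08170, a histone superfamily gene, at 47.9, 50 and 47.2 CPM in mannitol and 10, 7.44 and 7.70 CPM in water (5.83-fold higher). The RING gene AT2G27940 (4.30-fold), AT5G55135 (4.02-fold), HMT3, a homocysteine methyltransferase (4.02-fold), CYP76C7 (3.84-fold) and AT4G07408 (3.79-fold) also rose. AT5G66230 has the highest fold of these 15 but varied widely between replicates, with replicate 2 the highest in each medium. It had 23.1, 94.4 and 27.7 CPM in mannitol and 0.195, 13.2 and 0.218 CPM in water. It was not called without mannitol replicate 2, without water replicates 1 or 3, by limma-voom or in the fit of the 6 odr1-2 libraries alone. Besides XTH33, 5 loci had 0 counts in all mannitol libraries and at least 5 counts in each water library: BLH1, AT1G61255, AT2G02660, AT3G56220 and AT5G64100. Their levels in water were 0.363 to 0.974 CPM, and they were at least 5.35-fold to 8.62-fold lower in mannitol at the floor of 3 counts over the group. No locus met the opposite condition.

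The response of odr1-2 was then set against that of Col-0, which shares no library with it. In Col-0, 7798 genes (42.4%) changed. Of the genes called in odr1-2, 2838 rose and 2840 fell in Col-0 as well, which is 72.6% of the odr1-2 calls and 72.8% of the Col-0 calls, while 14 rose and 18 fell in odr1-2 with the opposite call in Col-0. A test of the difference itself, the odr1-2 response minus the Col-0 response, called 690 genes (3.75%), with 199 positive (1.08%) and 491 negative (2.67%). Among the genes that rose in odr1-2 it was negative for 270 and positive for 71. Among those that fell it was negative for 152 and positive for 72. A negative value there is a larger fall than in Col-0, or a fall where Col-0 did not fall. The difference was called for 32 genes with opposite calls in odr1-2 and Col-0.

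Maturation genes were among those with smaller rises in odr1-2 than in Col-0. The difference was negative for 16 of 27 LEA genes and 15 of 20 storage and oil body genes, and positive for none and 1 of them. CRA1 had 20100 ± 293 CPM in odr1-2 mannitol and 12600 ± 91.4 CPM in odr1-2 water, against 12600 ± 586 CPM in Col-0 mannitol and 5020 ± 49.5 CPM in Col-0 water (SD, n = 3 each). The odr1-2 level was thus higher in both media, and the step to mannitol smaller on the log2 scale (0.68 in odr1-2, 1.33 in Col-0, difference -0.65 ± 0.04, adjusted p = 2.66e-19).

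DOG1 averaged 35.3 ± 2.45 CPM in odr1-2 mannitol and 10.3 ± 0.936 CPM in odr1-2 water, against 9.16 ± 1.18 CPM in Col-0 mannitol and 1.29 ± 0.455 CPM in Col-0 water. The ranges of odr1-2 in water and of Col-0 in mannitol overlapped, and in each medium odr1-2 lay above Col-0. The difference of the responses was -1.04 ± 0.27 (adjusted p = 0.00965) and was not called by limma-voom, by the TPM fit or without Col-0 water replicate 1 or 3. RD29B had a difference of -1.05 ± 0.07 (adjusted p = 8.96e-19), with 402 ± 14.2 and 260 ± 10.8 CPM in odr1-2 mannitol and water, against 199 ± 3.79 and 62.2 ± 4.84 CPM in Col-0 mannitol and water. STS had -1.21 ± 0.14 (adjusted p = 1.6e-09). In the dormancy and embryo programme list the difference was negative for 3 genes and positive for 1. The positive one was ABI4 (0.75, adjusted p = 1.85e-09), named after its value was seen.

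**Figure D5:**
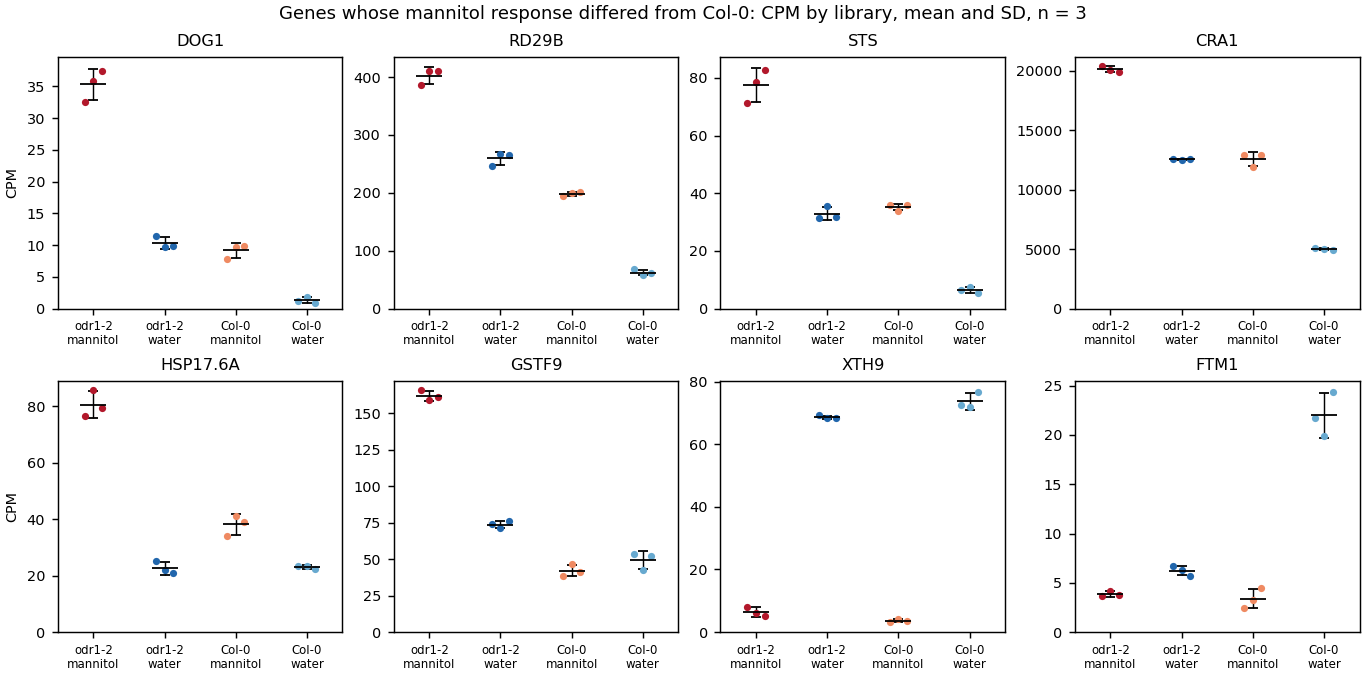
CPM (y axis, linear, from 0) by library in odr1-2 mannitol, odr1-2 water, Col-0 mannitol and Col-0 water, left to right, with the mean and SD of each group, for 8 genes whose response differed between the genotypes. DOG1, RD29B, STS and CRA1 are higher in odr1-2 than in Col-0 in both media, while HSP17.6A is alike in water, at 22.6 and 23.1 CPM, and apart in mannitol.

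Some genes responded more in odr1-2. HSP17.6A averaged 80.5 ± 4.74 CPM in odr1-2 mannitol and 22.6 ± 2.25 CPM in odr1-2 water, against 38.1 ± 3.54 CPM in Col-0 mannitol and 23.1 ± 0.661 CPM in Col-0 water (difference 1.11 ± 0.12, adjusted p = 1.36e-10). Of the heat shock proteins 3 differed, all positive, HSP90.1 (0.84) and Hsp70b (0.71) being the others, named after their values were seen. GSTF9, a glutathione S-transferase, rose in odr1-2, with 162 ± 3.59 CPM in mannitol and 73.8 ± 2.30 CPM in water, and was slightly lower in Col-0 mannitol (42.2 ± 3.98 CPM) than in Col-0 water (49.4 ± 6.16 CPM). The difference was 1.35 ± 0.10 (adjusted p = 2.11e-17). YLS5 also rose in odr1-2 and fell in Col-0 (difference 1.32 ± 0.21, adjusted p = 6.82e-05).

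Several growth genes differed in how far they fell. XTH15 and EXO fell further in odr1-2, by -1.49 ± 0.20 and -1.34 ± 0.26 on the log2 scale, from water levels of 121 ± 4.70 and 69.8 ± 1.86 CPM in odr1-2 against 125 ± 4.85 and 82.2 ± 3.01 CPM in Col-0. XTH9 fell less (0.90 ± 0.19, adjusted p = 0.000584), so the family did not differ in 1 direction. GA3OX1 and GA3OX2 also fell less, by 0.73 ± 0.15 and 0.74 ± 0.13. GA20OX2 fell in odr1-2 and rose in Col-0 (difference -1.50 ± 0.27, adjusted p = 5.27e-05), and its level was far lower in odr1-2, at 1.88 ± 0.117 CPM in mannitol and 4.11 ± 0.662 CPM in water, against 20.1 ± 3.38 CPM in Col-0 mannitol and 15.2 ± 0.194 CPM in Col-0 water. PDF1 fell less in odr1-2 (0.86 ± 0.09), and FTM1, a stearoyl-ACP desaturase, fell much less (2.00 ± 0.27, adjusted p = 4.89e-08), from a water level of 6.24 ± 0.492 CPM in odr1-2 against 22.0 ± 2.25 CPM in Col-0.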

How the data were processed

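The authors deposited raw read counts per gene and TPM, and per the submitters' processing notes the tools were fastp 0.23.1, HISAT2 2.2.1 and HTSeq 2.0.5 with the build TAIR10. The strand setting is not given in the sources used here. Of 36795 loci, 36632 were matched to TAIR10.1 (RefSeq), which gave names, exon lengths and promoters. No column was left unmapped. Libraries held 10060020 to 13693166 counts.

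All 12 libraries entered 1 fit of 4 group means in edgeR 4.0.16 (R 4.3.3; TMM, filterByExpr with a minimum count of 10 and a total of 15, robust quasi-likelihood, two-sided, Benjamini-Hochberg adjustment over the 18413 genes tested, threshold 0.05), giving the odr1-2 response and its difference from the Col-0 response. Every adjusted p comes from this test, and SEs were derived from its F statistic. TPM values were deposited by the authors beside the counts, with the lengths behind them not given in the sources used here, and served for levels between genes and for 1 alternative fit. The fit was run on simulated counts drawn from its own means and dispersions, with the changed genes taken from well-counted genes only. That run therefore says nothing of genes with few counts. Replicates differed beyond counting noise (chi-square per degree of freedom 1.99 to 5.61). P-values measure only the spread between these samples.

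The comparison, its members and the gene lists were chosen with earlier results of these data known. Membership of the EXORDIUM, aquaporin, pectin methylesterase, potassium transport and small auxin-up RNA lists was corrected after values were seen, and the motifs and promoters were chosen then too. Genes were named by rule: the 15 largest rises and falls with at least 10 CPM and no overlap, up to 3 called genes per list with at least 1 CPM, the 5 largest differences from Col-0 each way, 6 fixed genes, loci at 0 in one medium with at least 5 counts in each library of the other, the 10 highest by TPM, and cell type markers. Alternatives used DESeq2 1.42.0, limma 3.58.1, other scalings and filters, a replicate block and leaving out libraries.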

Additional observations from a re-analysis of the deposited data

Results flagged for a closer look

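The mannitol response of these genes differed between odr1-2 and Col-0 in the edgeR test of the difference itself. Each value is the odr1-2 log2 fold change minus the Col-0 one, and the 690 genes that passed make up 3.75% of those tested. Among the flagged maturation genes the values were negative: ECP31 (-0.80), EM6 (-0.44), AT3G15670 (-0.32), SESA5 (-0.79), CRA1 (-0.65), CRU3 (-0.63), OLEO1 (-0.52), OLEO4 (-0.37) and BETA-TIP (-0.85). They were negative too for PER1 (-0.75), AT1G04560 (-0.71), LCR67 (-0.34) and CAT3 (-0.34). The 2S albumin gene SESA4 (0.32) and the dormancy list member ABI4 (0.75), which were not flagged, had positive differences that passed.

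Among genes of ABA, dormancy and osmotic responses they were NCED9 (-0.73), HAI3 (-0.44), PYL4 (-0.53), MYBR1 (-0.73), RD29B (-1.05), DOG1 (-1.04), GOLS2 (-0.82), STS (-1.21) and DIN10 (0.42). Among hormone, nitrogen and carbon genes they were GA3OX1 (0.73), GA3OX2 (0.74), GA20OX2 (-1.50), GASA2 (-0.93), GASA3 (-0.84), GASA6 (-0.44), NIR1 (0.43), ASN1 (-0.62) and FAD3 (-0.26).

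Among wall, epidermis and endosperm genes they were XTH15 (-1.49), XTH9 (0.90), EXO (-1.34), EXPA2 (-0.32), EXPA9 (-0.39), EXPA10 (0.43), LAC8 (-0.87), MIOX2 (-0.63), AT5G45670 (-1.45), PDF1 (0.86) and MAN7 (-0.51). The remaining genes were HSP17.6A (1.11), FTM1 (2.00), GSTF9 (1.35), YLS5 (1.32), AT4G30470 (1.31), AT2G29310 (-2.42), CYP78A6 (-1.47), AT5G55135 (-0.77), AT4G14120 (-0.99) and ATCG00340 (1.33). ATCG00340 is a chloroplast locus, and the chloroplast share of counts was 0.0155% to 0.0168% in odr1-2 mannitol and 0.00661% to 0.00749% in odr1-2 water, whose part in the result was not tested.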

How the results depend on the processing

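Of 3023 values of 180 named genes under alternatives, 2962 kept their direction and side of the threshold, 47 lost a call (17 genes), 2 gained one and 12 changed sign, all 12 in genes that were not called. Of 1666 list counts 1569 stayed within 1.5 times. Calls numbered 6040 at an adjusted p under 0.01 and 7314 by the DESeq2 Wald test. With a minimum of 2-fold 1217 genes were called, 565 up and 652 down. The fit of log2(TPM + 1) gave 2511 risers and 5122 fallers. Genes whose response differed from Col-0 numbered 450 at an adjusted p under 0.01. Leaving out 1 library gave 6985 to 7162 calls, 3431 to 3538 risers, 3541 to 3624 fallers and 556 to 905 differences from Col-0, the highest without Col-0 mannitol replicate 2. With a replicate block 7925 genes changed and 757 differed. The correlations of deviations between mannitol and water libraries, -0.013 to 0.012, do not pair the numbers. In the TPM fit P5CS1 was at -0.03, CYP707A2 at -0.02 and MUM4 at -0.01, and P5CS1 at -0.01 under total counts. Leaving out 1 library, the log2 fold change ran from -0.05 to 0.14 for P5CS1, -0.04 to 0.01 for MAN7, -1.09 to 0.16 for TTG2, -0.04 to 0.01 for RBCS1A and -0.42 to 0.21 for CAB1. The cause was not tested. Depth limits genes of a few counts, such as those at 0 in mannitol.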
